A study of Homo sapiens with 10 samples.

Results

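The size of the transcriptional response to 1,25(OH)2D3, the active hormone of vitamin D, was compared between VDR-KD and VDR-WT cells of WM164, a human melanoma line. A gene entered the comparison when its entry carried a single name, that name was protein-coding, and its level reached 5 FPKM (fragments scaled by transcript length and library size) in at least 1 of 8 libraries. These limits were met by 8146 of the 54826 entries of the table. For each gene the response was the value with 1,25(OH)2D3 minus the mean of 3 comparison libraries of the same genotype, both as log2 of FPKM plus 0.1. The comparison libraries came from cells given ethanol, the vehicle, and from cells given 25(OH)D3 or 20(OH)D3, which lack the hydroxyl group at C1α. The added 0.1 shrinks the response of genes with low values.

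The VDR-KD cells are labelled as a VDR knockout, and the VDR-WT cells as a wild type that received a scrambled control. Each genotype gave 1 library for 1,25(OH)2D3, for ethanol, for 25(OH)D3, for 20(OH)D3 and for 1,20(OH)2D3, and this last library was not part of the response. Compounds were given at 100 nM and ethanol at 0.1%, for 24 h, to cells in charcoal-treated serum. No condition had a replicate. The 3 comparison libraries of a genotype stood in for replicates although they differ in treatment, and the lone 1,25(OH)2D3 library was taken to vary as they do. The labels name no separately made cell populations within a genotype, so the p-values measure the spread between these libraries only, and differences between the populations other than the VDR cannot be told apart from it. In bulk RNA, fewer cells that express a gene and less of its RNA per cell cannot be told apart either.

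The vitamin D receptor, VDR, is a nuclear receptor that binds 1,25(OH)2D3, pairs with a retinoid X receptor and acts on DNA elements near its target genes. The target induced most strongly in many tissues is CYP24A1, the mitochondrial hydroxylase that starts the breakdown of the hormone. In melanoma cells the hormone is known to slow growth, and in cells of the melanocyte lineage vitamin D signalling has been linked to differentiation.

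The label of the knockdown was not borne out by the VDR mRNA. VDR was 12.1 FPKM with 1,25(OH)2D3 and 13.6, 12 and 14.8 FPKM for ethanol, then 25(OH)D3 and then 20(OH)D3, in the libraries labelled VDR-KD, against 7.55 FPKM and 9.63, 9.03 and 5.54 FPKM in VDR-WT. The libraries labelled VDR-KD were thus the higher ones in each of these 4 treatments, and genotype is used below as the label gives it. An FPKM of mRNA does not measure the protein. Summed FPKM was 577696 to 651658 per library, the read depth behind it is unknown, and 7 of 8 melanoma markers reached 5 FPKM. Markers of other cell types were summed over each list. With 1,25(OH)2D3 they came to 11.2 FPKM for keratinocytes, 138 FPKM for fibroblasts, 22.9 FPKM for endothelium and 3.07 FPKM for leukocytes in VDR-KD, against 10.2 to 12.5, 97.7 to 107, 10.1 to 11.2 and 3.31 to 4.70 FPKM in its comparison libraries. In VDR-WT the same sums were 12.1, 101, 9.24 and 2.18 FPKM with 1,25(OH)2D3, against 9.55 to 10.6, 78.4 to 97.2, 3.47 to 4.15 and 1.85 to 3.11 FPKM. The endothelial sum is nearly all KDR, a receptor of vascular growth factor, and the part of these markers in the results was not tested.

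Over all 8146 genes the response, with the spread between libraries included, was of like size in both genotypes. Its SD across genes was 0.398 in VDR-KD and 0.363 in VDR-WT on the log2 scale, a ratio of 1.10. The median size regardless of sign was 0.150 in VDR-KD and 0.144 in VDR-WT. Without the 20(OH)D3 library of VDR-WT the ratio of SDs was 1.02. For scale, pairs of VDR-WT comparison libraries differed from each other with an SD of 0.294 to 0.328. The 1,25(OH)2D3 library of VDR-WT differed from each of them with an SD of 0.380 to 0.436. In VDR-KD the same SDs were 0.236 to 0.306 and 0.424 to 0.434. The SD of the response includes the residual spread between comparison libraries (SD 0.194 in VDR-KD and 0.224 in VDR-WT). The ratio was not corrected for this spread. The spread was larger in VDR-WT, where the SD of the response was smaller, so leaving it in lowers the ratio. The ratio thus does not give the size of the responses alone.

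The responses of both genotypes, which share no library, moved together across genes. Pearson's r was 0.70 and Spearman's rho 0.46 over 8146 genes, which are not independent of each other. Leaving out CYP24A1 gave r = 0.68, and leaving out the 10 genes with the largest mean response gave r = 0.63. By mean level over the 6 comparison libraries, r was 0.58 for 3616 genes at 5 to 20 FPKM, 0.73 for 3228 genes at 20 to 100 FPKM and 0.80 for 758 genes above that. The SD of the response was 0.382 in VDR-KD and 0.335 in VDR-WT at 5 to 20 FPKM, and 0.255 in VDR-KD and 0.225 in VDR-WT in the highest class. The 544 genes with a mean under 5 FPKM were measured only because some library reached that limit, so no correlation is given for them alone. The SD of their response was the largest of the classes, at 0.852 in VDR-KD and 0.845 in VDR-WT. They are part of r, rho and the SDs over all 8146 genes, which thus draw on them. Of the 544, 91 reached the limit with 1,25(OH)2D3 alone, and so had to be higher in at least 1 of the 1,25(OH)2D3 libraries. The response passed 2-fold in both genotypes for 98 of the 8146 genes. It had the same direction for 96 (1.18% of the 8146, beside 2.25% of all entries tested). Opposite directions were found for 2 (0.0246% of the 8146, beside 0.715% of all entries tested). Those with opposite directions were NT5DC4, a nucleotidase family member of unknown function, and TESMIN, a germ cell metallothionein-like protein, both named after their values were seen. NT5DC4 was 0 FPKM with 1,25(OH)2D3 and 0.117, 5.06 and 5.97 FPKM in the VDR-KD comparison libraries, against 4.94 FPKM and 16.8, 0 and 4.5 FPKM in VDR-WT. Its comparison libraries thus ranged as widely as its response.

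**Figure D1:**
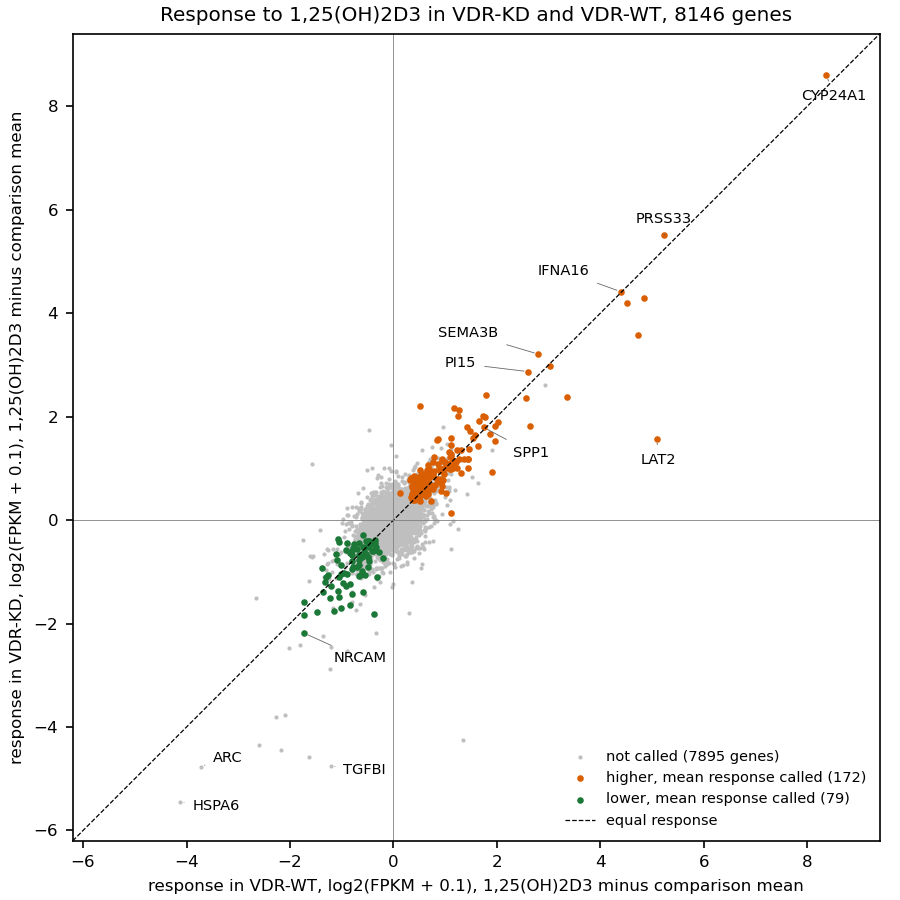
Response to 1,25(OH)2D3 in VDR-KD (vertical axis) and in VDR-WT (horizontal axis), each as log2(FPKM + 0.1) with 1,25(OH)2D3 minus the mean of 3 comparison libraries. Each point is 1 of 8146 genes, colored where limma called the mean response of both genotypes (172 higher, 79 lower), and the dashed line marks equal responses. Most colored points lie along the line, with LAT2 as the largest departure to the right.

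A gene was called at an adjusted p under 0.05 from limma, with Benjamini-Hochberg adjustment over all 14689 entries tested. For the response in VDR-KD, limma called 30 of the 8146 genes higher, beside 0.293% of all entries tested, and 7 lower, beside 0.0885% (0.381% in either direction). For the response in VDR-WT it called 21 higher, beside 0.191% of all entries, and 1 lower (TNC), beside 0.0136% (0.204% in either direction). For the mean of both responses it called 172 higher, beside 1.59% of all entries, and 79 lower, beside 0.824% (2.41% in either direction). Of the 172 rises, 22 belong to the 91 genes that met the limit on level with 1,25(OH)2D3 alone. Of all 251 genes, each had the same sign in both genotypes and lay beyond each comparison library of both genotypes. Choosing genes by the mean of both responses favors this pattern, so it is a description only. The calls of single genotypes overlapped in 17 genes, which are 45.9% of the VDR-KD calls and 77.3% of the VDR-WT calls. Calls in 1 genotype alone were thus 20 of 37 in VDR-KD and 5 of 22 in VDR-WT. Over all entries tested they were 37 of 56 in VDR-KD and 11 of 30 in VDR-WT.

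These counts depend on single libraries. Leaving out the 25(OH)D3 library of VDR-KD gave 4 calls in VDR-KD, 5 in VDR-WT and 57 for the mean response. Leaving out the ethanol or 20(OH)D3 library of VDR-KD gave 8 and 5 calls in VDR-KD, 12 and 9 in VDR-WT, and 96 for the mean response in either case. Without the ethanol or 25(OH)D3 library of VDR-WT there were 8 and 45 calls in VDR-KD, 8 in VDR-WT in either case, and 96 and 105 for the mean response. Without its 20(OH)D3 library there were 49, 15 and 171.

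Counts that need no model gave a similar order in both genotypes. A response over 2-fold was found for 170 genes in VDR-KD (94 higher, 76 lower), beside 7.01% of all entries tested, and for 148 genes in VDR-WT (85 higher, 63 lower), beside 6.62%. With 1,25(OH)2D3 the value lay above all comparison libraries in both genotypes for 1137 genes (14%, beside 12.1% of all entries) and below all of them for 1064 (13.1%, beside 11.6%). It lay above all in one genotype and below all in the other for 566 genes (6.95%, beside 7.24%).

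The test of the difference itself, VDR-KD response minus VDR-WT response, called 0 of the 8146 genes with limma, beside 0.00681% of all entries tested. At an unadjusted p under 0.05 there were 220 genes, or 2.7%, beside 3.53% of all entries. The entry called among the 14689 was HSPE1P2, a pseudogene of a mitochondrial chaperonin and so not among the 8146. Among the 251 genes called for the mean response, which weighs both genotypes alike, the median ratio of the VDR-KD to the VDR-WT response was 1.10, with quartiles of 0.903 and 1.36. The response was larger in VDR-KD, regardless of sign, for 161 of them, beside 4271 of all 8146 genes. The ratio was 1.10 for the 172 rises and 1.14 for the 79 falls, and 0.957 for the 14 rises over 4-fold, of which 10 met the limit on level with 1,25(OH)2D3 alone.

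CYP24A1 had the largest mean response of the called genes and rose in both genotypes. It lies on chromosome 20 of GRCh38 (chr20:54153449-54173973). In VDR-KD it was 77.3 FPKM with 1,25(OH)2D3 and 0.452, 0 and 0.0441 FPKM in the comparison libraries, given here and below in the order ethanol, 25(OH)D3, 20(OH)D3. In VDR-WT it was 56.8 FPKM with 1,25(OH)2D3 and 0.0777, 0 and 0.187 FPKM in the same comparison libraries. Both 1,25(OH)2D3 libraries stood far above all others, and the comparison values are too close to 0 to set the fold. The response was 8.60 in VDR-KD and 8.37 in VDR-WT (standard error 1.01 each), a difference of 0.23 with a 95% interval of -3.15 to 3.61. The mean response passed limma (adjusted p = 0.00587) and held without any 1 comparison library (adjusted p from 0.00623 to 0.0233), but not without both 20(OH)D3 libraries (adjusted p = 0.0536).

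For SPP1 the interval was narrow. It encodes osteopontin, a secreted phosphoprotein of bone and tumors and a known target of the VDR. SPP1 (chr4:87975650-87983426) was 185 FPKM with 1,25(OH)2D3 and 55.7, 52.9 and 51.4 FPKM in the VDR-KD comparison libraries, against 181 FPKM and 56.4, 53.3 and 52.3 FPKM in VDR-WT. Its response was 1.79 in VDR-KD and 1.74 in VDR-WT (standard error 0.0935 each), so the difference was 0.05 with a 95% interval of -0.27 to 0.36. A response smaller in VDR-KD than in VDR-WT by more than 0.27 thus lay outside the interval.

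PRSS33, a serine protease of the trypsin family (chr16:2783953-2787948), was 56.5 FPKM with 1,25(OH)2D3 and 0.887, 1.43 and 1.18 FPKM in the VDR-KD comparison libraries. In VDR-WT it was 67.7 FPKM with 1,25(OH)2D3 and 1.37, 1.64 and 2.17 FPKM in the comparison libraries. SEMA3B, a secreted semaphorin that guides axons and is known as a tumor suppressor (chr3:50267558-50277546), was 54.4 FPKM against 6.39, 5.21 and 5.84 FPKM in VDR-KD, and 49.8 FPKM against 7.15, 7.07 and 6.94 FPKM in VDR-WT. In both genes no comparison library came near the 1,25(OH)2D3 library of its genotype. The difference of responses was 0.27 (95% interval -0.86 to 1.40) for PRSS33 and 0.41 (-0.10 to 0.92) for SEMA3B. Both passed limma for the mean response (adjusted p = 0.000457 and 0.000217) and also without both 20(OH)D3 libraries (adjusted p = 0.0297 each).

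PI15 encodes a secreted peptidase inhibitor. It was 115 FPKM with 1,25(OH)2D3 and 17.2, 15.6 and 14.3 FPKM in the VDR-KD comparison libraries, against 109 FPKM and 19.4, 13.3 and 21.7 FPKM in VDR-WT, with responses of 2.87 and 2.60 in VDR-KD and VDR-WT. ERO1B, an oxidase of the endoplasmic reticulum, had responses of 2.35 in VDR-KD and 2.55 in VDR-WT, and GPR158, an orphan receptor, 1.89 in VDR-KD and 2.02 in VDR-WT. COL16A1, a collagen that associates with fibrils, was 25.9 FPKM against 8.62, 7.45 and 5.99 FPKM in VDR-KD, and 52.7 FPKM against 8.18, 10.6 and 6.65 FPKM in VDR-WT. Its responses were 1.82 and 2.65, and the difference of -0.83 had an interval of -1.80 to 0.14. All of these rises held for the mean response without any 1 comparison library. Of the 15 largest rises, 11 did so and 7 passed without both 20(OH)D3 libraries. UBAP1L, a ubiquitin-associated protein, MUC19, a gel-forming mucin, and HSD3B2, a steroid dehydrogenase of the adrenal cortex and gonads, were called too (mean responses of 3.0, 2.11 and 2.87), but each kept the call in only 2 of the 6 fits that left out a library (highest adjusted p = 0.0771, 0.0847 and 0.0643 from limma, each without the 25(OH)D3 library of VDR-KD). CYP24A1, PRSS33, ERO1B, GPR158, UBAP1L and HSD3B2, and below IFNA7, IFNA16, IFNA17, IFNA14, LAT2 and SEMA6B, met the limit on level with 1,25(OH)2D3 alone.

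**Figure D2:**
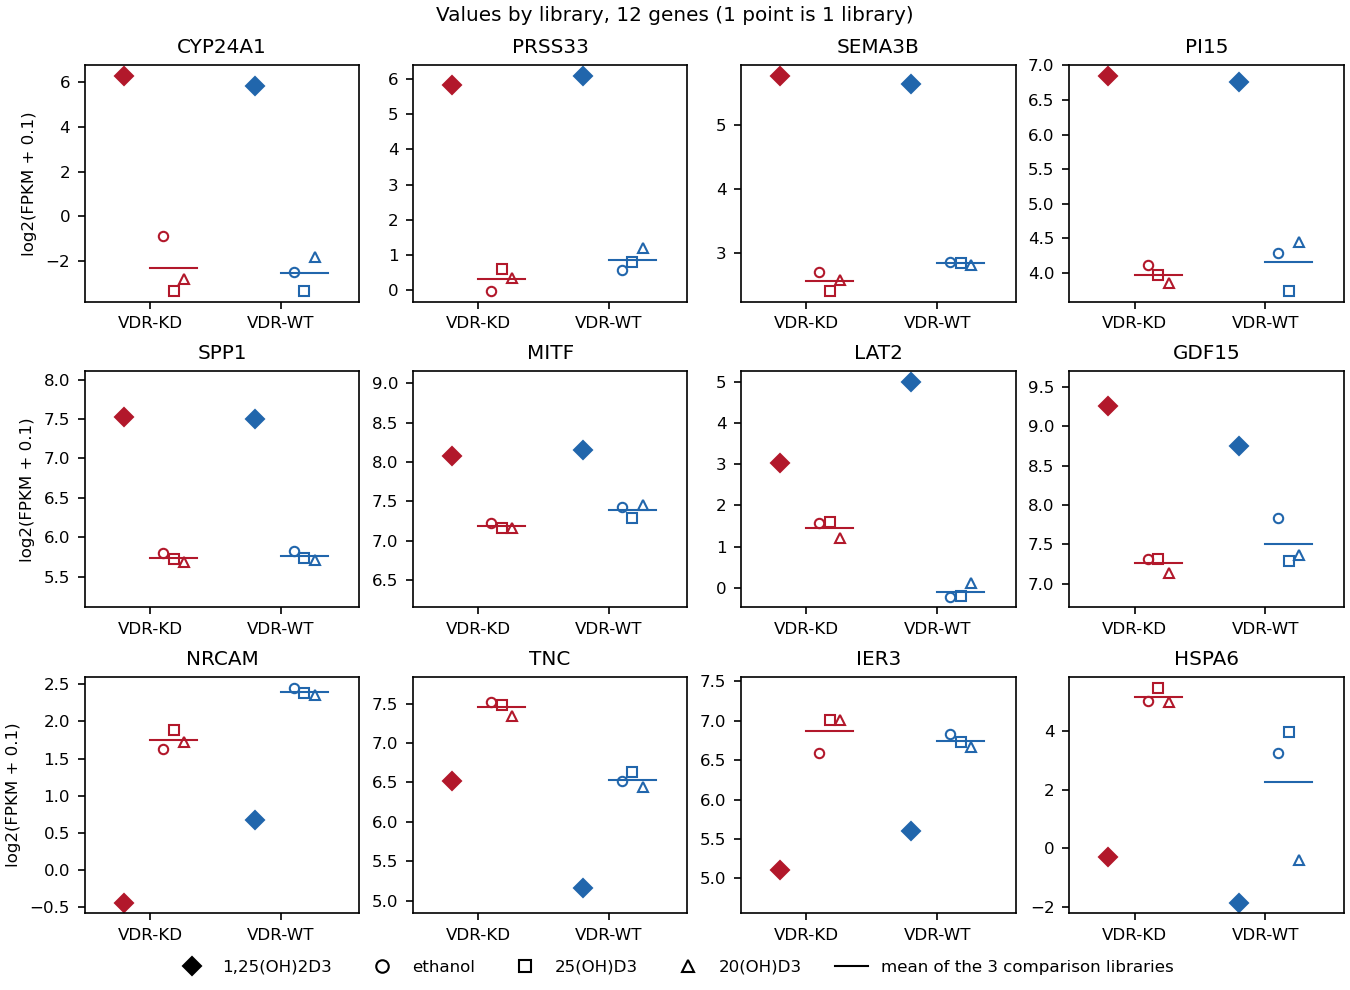
Values of 12 genes in each library as log2(FPKM + 0.1), with VDR-KD in red on the left and VDR-WT in blue on the right. Filled diamonds are the 1,25(OH)2D3 libraries, open symbols the 3 comparison libraries and lines their mean. CYP24A1, PRSS33, SEMA3B, PI15 and SPP1 step up by like amounts in both genotypes, LAT2 starts and ends at different levels, and the 20(OH)D3 library of VDR-WT is low for HSPA6.

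Several genes of the type I interferon cluster on chromosome 9 rose in both genotypes. These genes encode secreted antiviral cytokines of a family whose members resemble each other closely, so reads may be shared between them and the level of any 1 member is uncertain. In the files the members among the 8146 genes were IFNA7, IFNA16, IFNA17 and IFNA14. The bases just before the annotated start of 3 of them, and of 3 others of the cluster that stayed under 1 FPKM in all 8 libraries, are shown so that genes that reached 5 FPKM can be set beside genes that did not. They are from RefSeq (GRCh38.p14), 5′ to 3′ on the minus strand, and capitals mark each GAAA, the core of the elements that interferon regulatory factors bind. The first 3 reached 5 FPKM. IFNA10 lies among them, and IFNA4 and IFNA21 lie on one side.
IFNA7 (chr9:21202206-21202315): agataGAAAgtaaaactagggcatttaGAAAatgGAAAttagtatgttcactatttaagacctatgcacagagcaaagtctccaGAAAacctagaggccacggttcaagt
IFNA17 (chr9:21228223-21228332): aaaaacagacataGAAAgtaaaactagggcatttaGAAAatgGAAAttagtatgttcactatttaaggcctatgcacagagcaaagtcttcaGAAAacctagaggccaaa
IFNA14 (chr9:21240006-21240115): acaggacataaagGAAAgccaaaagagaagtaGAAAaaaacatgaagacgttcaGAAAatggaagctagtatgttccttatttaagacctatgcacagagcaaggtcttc
IFNA10 (chr9:21207144-21207253): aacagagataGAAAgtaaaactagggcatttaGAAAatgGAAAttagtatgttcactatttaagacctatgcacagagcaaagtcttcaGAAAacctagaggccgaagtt
IFNA4 (chr9:21187588-21187697): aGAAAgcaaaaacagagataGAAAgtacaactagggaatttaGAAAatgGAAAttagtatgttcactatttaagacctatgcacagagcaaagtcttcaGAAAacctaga
IFNA21 (chr9:21166661-21166770): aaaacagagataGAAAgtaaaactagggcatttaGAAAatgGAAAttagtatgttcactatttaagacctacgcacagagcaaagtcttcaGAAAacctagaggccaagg

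Over 250 bases before the start, on the strand of the gene, all 6 held 8 or 9 copies of GAAA. At least 8 copies were found before 0.128% of the 35116 start sites in the table. Identity with IFNA7 over those 250 bases, after global alignment, was 86.2% for IFNA17 and 62.2% for IFNA14, against 89.7% for IFNA10, 82.8% for IFNA4 and 88.8% for IFNA21. IFNA10 and IFNA4 were listed at 0 in every comparison library, and above 0 with 1,25(OH)2D3 in both genotypes.

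IFNA16 was the highest of the cluster, at 28.6 FPKM with 1,25(OH)2D3 and 0.865, 1.32 and 1.69 FPKM in the VDR-KD comparison libraries, against 23.1 FPKM and 1.17, 1.13 and 0.759 FPKM in VDR-WT. IFNA14 was 12.6 FPKM against 1.04, 0.336 and 0.564 FPKM in VDR-KD, and 14.9 FPKM against 0.486, 0.936 and 0.355 FPKM in VDR-WT. IFNA7 was 7.10 FPKM against 0.509, 0.493 and 0.498 FPKM in VDR-KD, and 5.08 FPKM against 0.178, 0.172 and 0 FPKM in VDR-WT. In all 3 the 1,25(OH)2D3 library was far above the rest of its genotype. IFNA17 was 6.09 FPKM against 0.586, 0.114 and 0.114 FPKM in VDR-KD, and 6.56 FPKM against 0, 0.474 and 0.120 FPKM in VDR-WT. Mean responses of IFNA16, IFNA14, IFNA7 and IFNA17 were 4.40, 4.36, 4.15 and 4.57 (adjusted p = 0.00243, 0.00883, 0.011 and 0.0371 from limma). IFNA17 kept its call in 1 of 6 fits that each left out a comparison library, with adjusted p up to 0.0991 without the 25(OH)D3 library of VDR-KD. The differences of responses were 0.02 for IFNA16 (95% interval -1.34 to 1.38), -0.32 for IFNA14 (-2.48 to 1.83), -1.14 for IFNA7 (-3.36 to 1.08) and -0.54 for IFNA17 (-4.16 to 3.08).

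Of 24 interferon entries in the cluster, 5 reached 5 FPKM with 1,25(OH)2D3, the fifth being the pseudogene IFNWP18 (7.85 FPKM for VDR-KD cells, 5.97 FPKM for VDR-WT cells). They lie between chr9:21201469 and 21239991 in GRCh38, a span of 38523 bases that also holds IFNA10 (with 1,25(OH)2D3 at 0.478 FPKM for VDR-KD cells and 0.620 FPKM for VDR-WT cells) and IFNWP5 (1.16 and 2.41 FPKM in the same libraries). Outside the span no value of the 17 other interferon entries passed 0.693 FPKM in the 8 libraries. IFNA4, the nearest coding gene on one side, had 0.117 FPKM with 1,25(OH)2D3 in VDR-KD, against 0.122 FPKM in VDR-WT. IFNA5, the nearest on the other side, was listed at 0 in all of them. KLHL9, an adaptor of a ubiquitin ligase that lies among these genes, was 16.8 FPKM against 16.4, 16.5 and 16.9 FPKM in VDR-KD, and 16.2 FPKM against 16.0, 15.9 and 16.9 FPKM in VDR-WT. With 1,20(OH)2D3, IFNA16 reached 3.38 FPKM in VDR-KD, against 3.67 FPKM in VDR-WT, which is above all comparison libraries. Of 17 measured genes known to be induced by interferon, OAS1, which senses viral RNA, was called higher for the mean response (0.72, adjusted p = 0.0499 from limma). It lost the call in all 6 fits that left out a library (adjusted p from 0.0513 to 0.115). None of the 17 was called lower. Beside these, 1.59% of all entries tested were called higher and 0.824% lower. The median response of the 17 genes was -0.18 in VDR-KD and -0.05 in VDR-WT, beside 0.01 and 0.00 over all 8146 genes. Whether interferon acted on these cells was not tested. IFNWP18, IFNA10, IFNWP5, IFNA4, IFNA5 and KLHL9 were named after their values were seen.

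**Figure D3:**
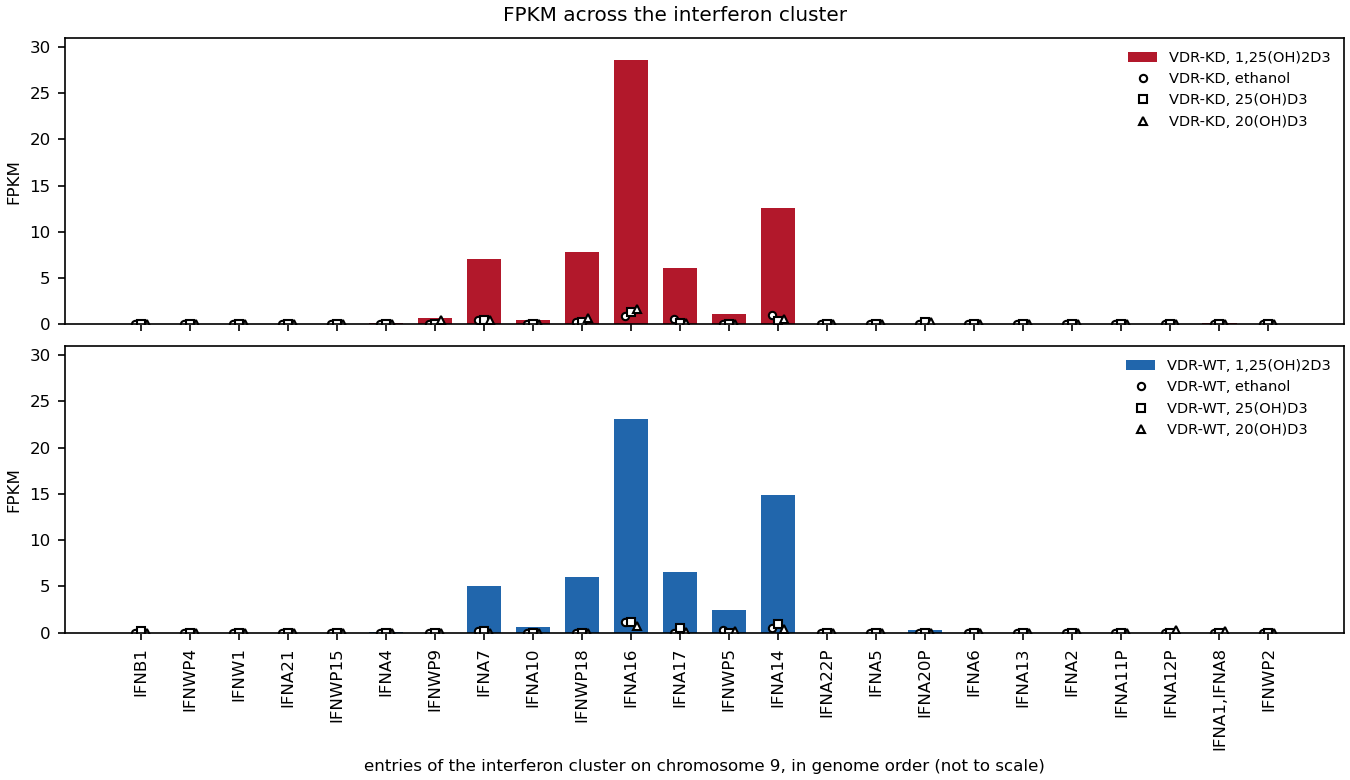
FPKM of 24 interferon entries of chromosome 9 in genome order, VDR-KD above and VDR-WT below. Bars are the 1,25(OH)2D3 libraries and open symbols the comparison libraries. The bars stand up from IFNA7 to IFNA14, with IFNA10 low between them, and entries on either side are near 0.

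LAT2 had the smallest p for a difference of responses among the 8146 genes. It encodes an adaptor that links immune receptors to signaling in leukocytes and lies on chromosome 7 (chr7:74199652-74229834). In VDR-KD it was 8.01 FPKM with 1,25(OH)2D3 and 2.85, 2.94 and 2.2 FPKM in the comparison libraries. In VDR-WT it was 31.8 FPKM with 1,25(OH)2D3 and 0.759, 0.777 and 0.989 FPKM in the comparison libraries. VDR-KD was thus the higher genotype in each comparison library and the lower one with 1,25(OH)2D3. Its response was 1.57 in VDR-KD and 5.09 in VDR-WT (standard error 0.281 each), and the difference was -3.53 (95% interval -4.47 to -2.59). This did not pass the adjustment (adjusted p = 0.125 from limma), but it passed with 1 or 0.5 added before the logarithm in place of 0.1 (adjusted p = 0.0234 and 0.0401), with no filter on low values (0.00556) and with eBayes without a trend (0.0483). Over all tested alternatives the adjusted p ran from 0.00556 to 0.996. Of its neighbors, EIF4H, a translation factor, had responses of 0.24 in VDR-KD and -0.09 in VDR-WT, and RFC2, a subunit of a DNA clamp loader, -0.05 and 0.06. CLIP2, a linker of microtubules, had 0.10 and 0.55, with a difference of -0.45 (adjusted p = 1.0 from limma). These 3 were named after their values were seen.

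For other genes with small p-values the difference of responses was further from the threshold. CUTA encodes the human homolog of a small bacterial protein involved in copper tolerance. It was 60.0 FPKM with 1,25(OH)2D3 and 49.9, 59.5 and 54.4 FPKM in the VDR-KD comparison libraries. In VDR-WT it was 109 FPKM with 1,25(OH)2D3 and 48.7, 48.4 and 54.4 FPKM in the comparison libraries. Its response passed limma in VDR-WT (1.12, adjusted p = 0.0365) and not in VDR-KD (0.14, adjusted p = 0.80), while the difference of -0.97 did not pass (95% interval -1.40 to -0.55, adjusted p = 0.751). RGS2, which damps signaling of G protein-coupled receptors, was 1.6 FPKM with 1,25(OH)2D3 and 4.88, 6.45 and 6.48 FPKM in the VDR-KD comparison libraries. In VDR-WT it was 3.71 FPKM with 1,25(OH)2D3 and 4.68, 5.33 and 4.56 FPKM in the comparison libraries. It lay below all comparison libraries in both genotypes, with a difference of -1.44 (-2.24 to -0.64, adjusted p = 1.0 from limma). BARD1, the partner of BRCA1 in DNA repair, was 19.2 FPKM against 8.16, 5.17 and 7.84 FPKM in VDR-KD, and 6.22 FPKM against 6.15, 6.87 and 6.37 FPKM in VDR-WT. Its difference was 1.51 (0.61 to 2.41, adjusted p = 1.0 from limma).

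Limma called 20 genes in VDR-KD but not in VDR-WT, beside 0.252% of all entries tested, among them GDF15, a stress-induced cytokine, and ANGPTL2, a secreted glycoprotein. GDF15 was 613 FPKM with 1,25(OH)2D3 and 159, 159.6 and 141 FPKM in the VDR-KD comparison libraries, against 429 FPKM and 229, 157 and 165 FPKM in VDR-WT. The response of GDF15 was 2.00 in VDR-KD and 1.25 in VDR-WT, a difference of 0.76 (95% interval 0.05 to 1.46), and that of ANGPTL2 was 1.56 in VDR-KD and 0.85 in VDR-WT, a difference of 0.71 (0.19 to 1.22). Neither difference passed the adjustment (adjusted p = 1.0 each from limma). KDR was among the 5 genes called in VDR-WT but not in VDR-KD, beside 0.0749% of all entries, while its responses were 1.18 in VDR-KD and 1.37 in VDR-WT.

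**Figure D4:**
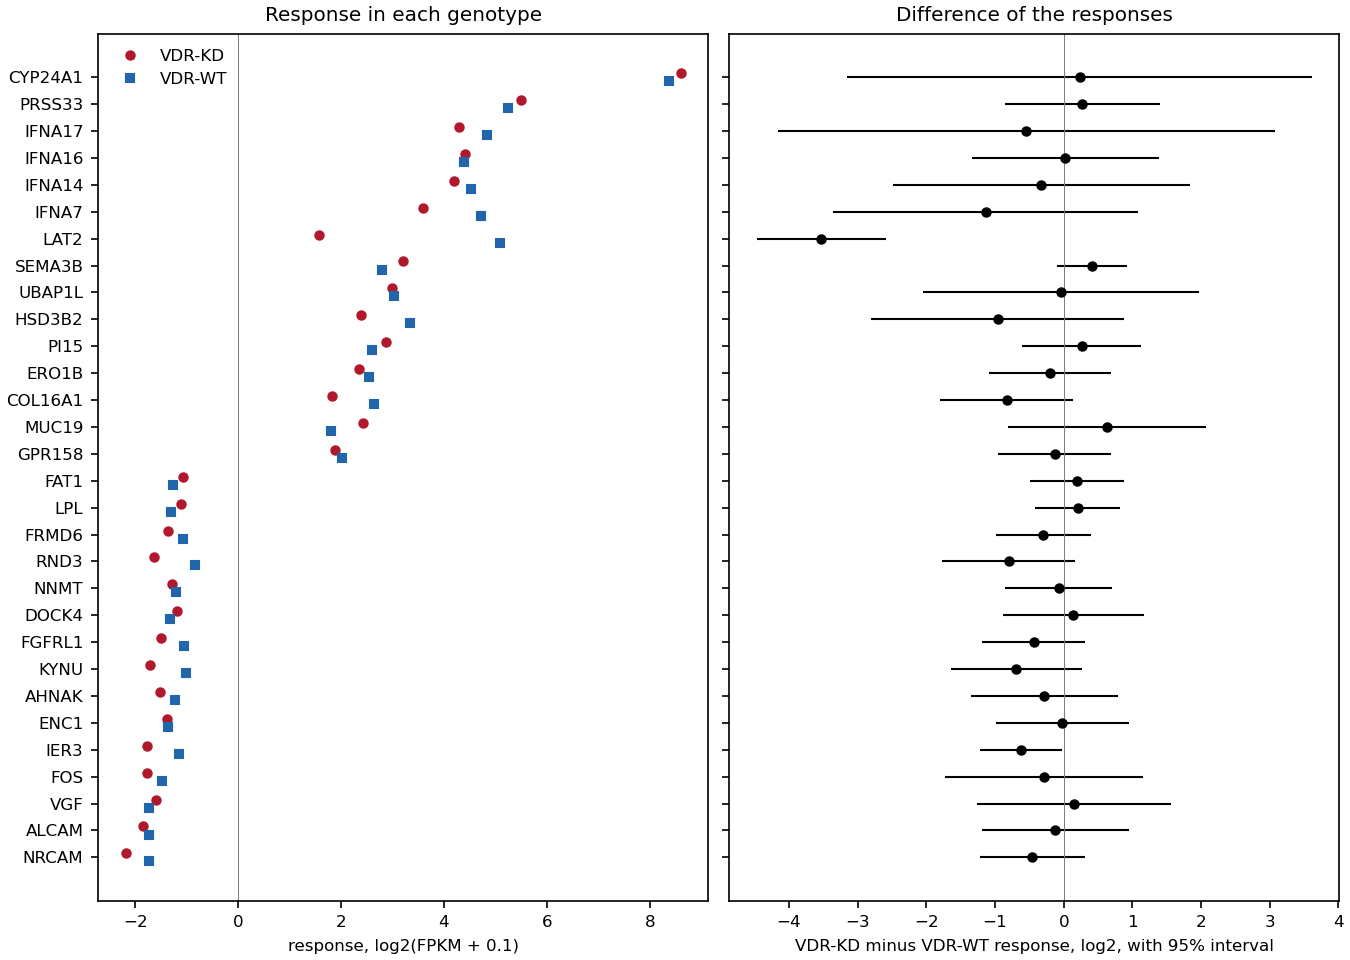
Genes called for the mean response, with the 15 that rose most and the 15 that fell most. The left panel gives the response in VDR-KD (red circles) and VDR-WT (blue squares) on the log2 scale, the right panel their difference, VDR-KD minus VDR-WT, with its unadjusted 95% interval from limma. The interval excludes 0 for LAT2 and, narrowly, for IER3.

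Falls were smaller than the largest rises. NRCAM, a cell adhesion molecule of nerve cells, was 0.638 FPKM with 1,25(OH)2D3 and 2.99, 3.60 and 3.20 FPKM in the VDR-KD comparison libraries, against 1.49 FPKM and 5.38, 5.11 and 5.04 FPKM in VDR-WT. IER3, an immediate early gene that acts on cell survival, was 34.2 FPKM against 96.0, 128 and 129 FPKM in VDR-KD, and 48.4 FPKM against 114, 106 and 102 FPKM in VDR-WT. TNC, which encodes the matrix protein tenascin C, was 91.9 FPKM against 184, 179 and 163 FPKM in VDR-KD, and 35.5 FPKM against 91.2, 98.8 and 87.2 FPKM in VDR-WT. In these genes the 1,25(OH)2D3 library lay below all comparison libraries of its genotype. Their mean responses were -1.96, -1.45 and -1.15 (adjusted p = 0.00571, 0.00587 and 0.00279 from limma), and they held without any 1 comparison library. The differences of responses were -0.46 (95% interval -1.22 to 0.30), -0.62 (-1.22 to -0.03) and 0.45 (0.07 to 0.82), so the fall was larger in VDR-KD for IER3 and larger in VDR-WT for TNC, without passing the adjustment (adjusted p = 1.0 each).

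Most other falls lost the call in at least 1 of the fits that left out a comparison library, and several lost it in most of them. Of the 15 largest, 2 (NRCAM and IER3) held for the mean response in all 6 fits that left out a comparison library. None passed without both 20(OH)D3 libraries. ALCAM, an adhesion molecule of activated leukocytes and melanoma, had responses of -1.84 in VDR-KD and -1.72 in VDR-WT and held in 3 of the 6 fits, and without the 25(OH)D3 library of VDR-KD its adjusted p was 0.0614 from limma. FOS, a subunit of the AP-1 transcription factor, had responses of -1.77 and -1.48 in VDR-KD and VDR-WT and held in 1 of the 6 (adjusted p = 0.120 without the same library). VGF, a secreted neuropeptide precursor, had responses of -1.59 and -1.74 and held in none (adjusted p from 0.0569 to 0.0963). Its level with ethanol alone, 1024 FPKM for VDR-KD cells and 959 FPKM for VDR-WT cells, was far above that with 25(OH)D3 or 20(OH)D3 (579 and 619 FPKM for VDR-KD cells, 531 and 533 FPKM for VDR-WT cells).

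Among genes of vitamin D itself, few were called. Of 12 measured genes of the receptor and its partners and coregulators, none was called for the mean response, beside 2.41% of all entries tested. At that share a count of 0 of 12 says little about these genes. The median response of the 12 was -0.01 in VDR-KD and -0.04 in VDR-WT. VDR had responses of -0.15 in VDR-KD and -0.05 in VDR-WT. RXRG, one of the retinoid X receptors, had 0.55 and 0.60 (adjusted p for the mean response = 0.352 from limma). Of 6 measured genes of vitamin D metabolism CYP24A1 alone was called, and it met the limit on level only through 1,25(OH)2D3. CYP27A1, a mitochondrial hydroxylase of vitamin D and sterols, had responses of 0.50 in VDR-KD and 0.13 in VDR-WT, and CYP2R1, which makes 25(OH)D3 in the liver, 0.20 and 0.27. Of 16 measured genes known as VDR targets, besides CYP24A1, 4 were called higher and none lower, beside 1.59% and 0.824% of all entries tested. The 4 were SPP1, SEMA3B, SLC37A2, a sugar phosphate transporter (responses of 1.59 and 1.12 in VDR-KD and VDR-WT), and CEBPB, a transcription factor (0.55 and 0.47). CEBPB held in 2 of the 6 fits that left out a library, with adjusted p up to 0.0847 without the 25(OH)D3 library of VDR-KD. The size of the response was larger in VDR-KD for 11 of the 16, and no difference was called.

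The classical element of the VDR was searched for around the starts of genes with a sequence in the RefSeq table, which has none for CYP24A1 or IFNA16. The motif, on both strands, was a half-site that reads AGGTCA or reads AGTTCA or reads GGGTCA or reads GGTTCA, followed by another of these after any 3 bases. It was found within 300 bases around the start for 0.0842% of 27305 genes, and for 3 of 6616 genes of the comparison with a sequence. It was found for 0 of the 137 rises (of 172) and 0 of the 64 falls (of 79) that had a sequence. At so low a share over all genes a count of 0 says nothing about these genes beyond the letters in that window.

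Genes of the pigment cell lineage moved in both directions. Of 13 measured lineage factors, 2 were called higher and 3 lower for the mean response, beside 1.59% and 0.824% of all entries tested. MITF, the master regulator of melanocytes, was 269 FPKM with 1,25(OH)2D3 and 149.8, 143 and 143 FPKM in the VDR-KD comparison libraries, against 284 FPKM and 172, 156 and 174 FPKM in VDR-WT. IRF4, a factor of pigment cells and lymphocytes, had responses of 1.09 in VDR-KD and 1.03 in VDR-WT. For both, the 1,25(OH)2D3 library was the highest of its genotype, and the differences of 0.13 (95% interval -0.21 to 0.46) and 0.06 (-0.46 to 0.59) did not pass. SNAI2, a repressor of epithelial genes, fell by 1.09 in VDR-KD and 1.05 in VDR-WT, TBX2, a repressor of senescence genes, had -0.86 and -1.01, and ZEB2, a regulator of melanocyte differentiation, -0.44 and -0.40. SNAI2 held in 1 and TBX2 in 5 of the 6 fits that left out a library, and ZEB2 in none (highest adjusted p = 0.0786, 0.0554 and 0.106, each without the 25(OH)D3 library of VDR-KD).

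Of 16 genes of pigment synthesis and melanosomes 1 was called, TRPM1, a cation channel of melanocytes, beside 2.41% of all entries tested. TRPM1 was 82.1 FPKM with 1,25(OH)2D3 and 25.5, 26.3 and 29.6 FPKM in the VDR-KD comparison libraries, against 75.3 FPKM and 27.7, 20.5 and 29.9 FPKM in VDR-WT. The median response of the 16 was 0.29 in VDR-KD and 0.27 in VDR-WT. Of them, 10 lay above all comparison libraries in both genotypes, beside 14% of all 8146 genes. MLANA, a melanosome antigen, had responses of 0.58 and 0.65, and DCT, an enzyme of melanin synthesis, 0.57 and 0.40 in VDR-KD and VDR-WT. Their mean responses did not pass (adjusted p = 0.11 and 0.123 from limma).

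Of 21 measured genes of the invasive, dedifferentiated melanoma state, 1 was called higher (NT5E, an enzyme that makes adenosine) and 6 lower. Beside these, 1.59% of all entries tested were called higher and 0.824% lower. The median response of the 21 genes was -0.59 in VDR-KD and -0.39 in VDR-WT. The 6 were ALCAM, TNC, SERPINE2, a protease inhibitor (-1.09 and -0.66 in VDR-KD and VDR-WT), CD44, a hyaluronan receptor (-0.90 and -0.70), WNT5A, a ligand of noncanonical WNT signaling (-1.05 and -0.54), and CDH2, or N-cadherin (-0.59 and -0.92). TNC alone of these held in all 6 fits that left out a library, while SERPINE2, CD44, ALCAM and NT5E held in some (highest adjusted p = 0.0816, 0.0689, 0.0614 and 0.0936, each without the 25(OH)D3 library of VDR-KD), and WNT5A and CDH2 in none (highest adjusted p = 0.0847 and 0.118, from limma). JUN, a subunit of AP-1, and MMP1, a collagenase, belong to the same list and were not called (adjusted p = 0.149 and 0.0734 by limma). In VDR-WT, JUN was 2.19 FPKM and MMP1 6.04 FPKM after 20(OH)D3, against 8.17 and 12.5 FPKM after ethanol. The part of that library in the median of the list was not tested.

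Targets of MAP kinase signaling and its feedback gave 5 falls and no rise among 18 measured. Immediate early genes gave 4 falls and no rise among 12, and IER3 belongs to both lists. Beside these, 0.824% of all entries tested were called lower and 1.59% higher. Falls called were IER3 and VGF, PHLDA1, a regulator of apoptosis (-0.99 and -0.60 in VDR-KD and VDR-WT), SPRY4 (-0.78 and -0.67) and SPRED1 (-0.59 and -0.41), which inhibit the pathway, and FOS, KLF6 and NR4A1, transcription factors induced by growth signals. KLF6 had responses of -0.79 in VDR-KD and -0.48 in VDR-WT, and NR4A1 -0.62 and -0.28. PHLDA1 and IER3 held in all 6 fits that left out a library. SPRED1 and KLF6 each held in 1, while SPRY4 and NR4A1 held in none (highest adjusted p = 0.0847, 0.111, 0.103 and 0.0991, each without the 25(OH)D3 library of VDR-KD). The median response of the MAP kinase list was -0.33 in VDR-KD and -0.29 in VDR-WT, and that of the immediate early list -0.54 and -0.34.

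Semaphorins and their receptors, which steer axons and vessels, gave 4 rises and 2 falls among 18 measured, beside 1.59% and 0.824% of all entries tested. Besides SEMA3B, SEMA6B rose by 1.54 in VDR-KD and 1.97 in VDR-WT. PLXND1, the receptor of SEMA3E, was 134 FPKM with 1,25(OH)2D3 and 66.7, 58.4 and 58.0 FPKM in the VDR-KD comparison libraries, against 136 FPKM and 62.8, 59.2 and 54.6 FPKM in VDR-WT. PLXNC1, the receptor of SEMA7A, had responses of 0.58 and 0.64. SEMA3A, which repels axons, and NRP2, a coreceptor of semaphorins and vascular growth factors, were the falls, with mean responses of -0.67 and -0.68. SEMA3A held in none and NRP2 in 2 of the 6 fits that left out a library (highest adjusted p = 0.108 when 25(OH)D3 in VDR-WT was left out, and 0.103 when 25(OH)D3 in VDR-KD was). All 4 rises held in each fit. Among 26 genes of the matrix and its receptors SPP1 and TIMP3, an inhibitor of metalloproteinases, were called higher and TNC lower, beside the same shares of all entries. TIMP3 was 545 FPKM with 1,25(OH)2D3 and 237, 269 and 238 FPKM in the VDR-KD comparison libraries, against 364 FPKM and 151, 183 and 151 FPKM in VDR-WT.

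**Figure D5:**
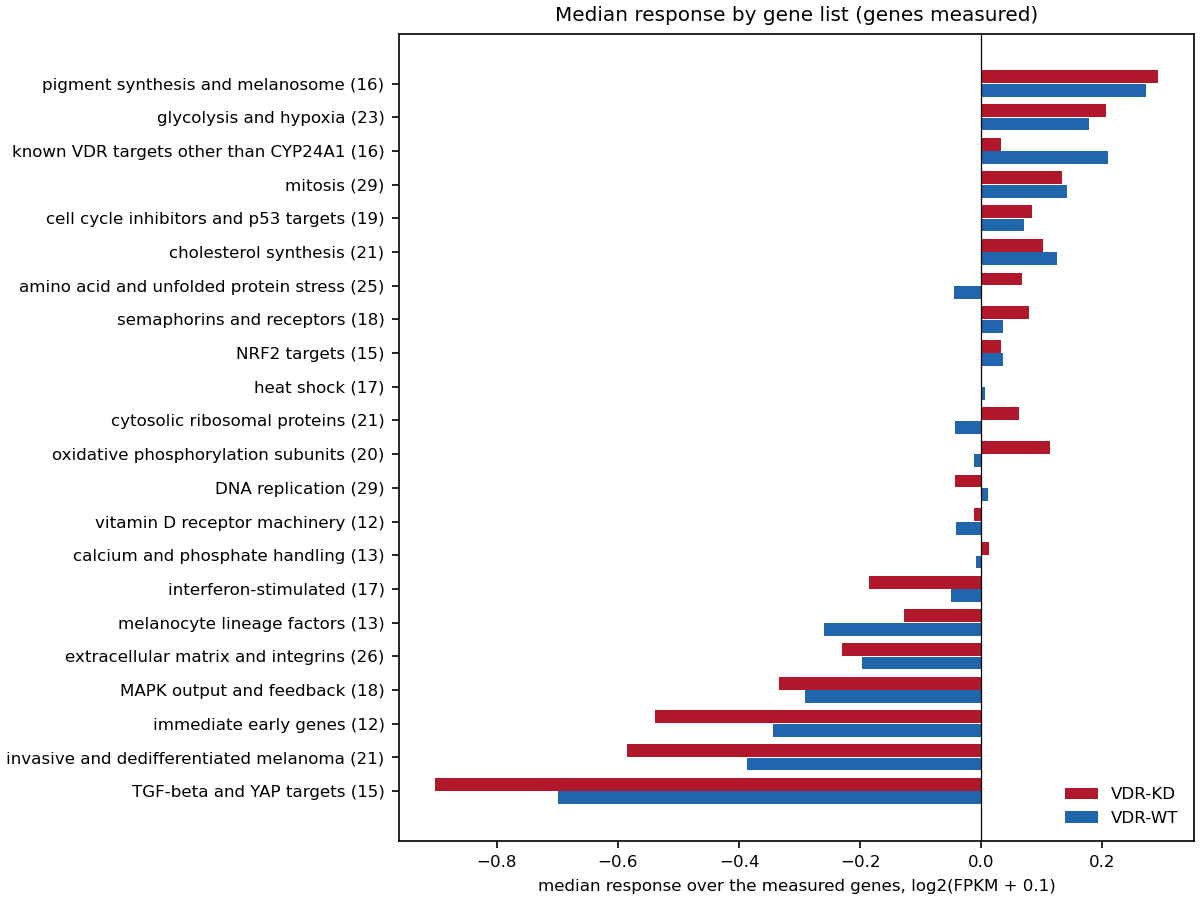
Median response to 1,25(OH)2D3 over the measured genes of 22 lists with at least 10 measured genes (number in brackets), VDR-KD in red above VDR-WT in blue, on the log2 scale. Lists of TGF-beta and YAP targets, invasive melanoma and immediate early genes lie below 0 and pigment synthesis above 0 in both genotypes. The lists were chosen with earlier results of these data known.

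Some heat shock, immediate early and TGF-beta target genes had larger responses below 0 than any called fall, but the 20(OH)D3 library of VDR-WT was low for them too. HSPA6, an inducible HSP70 chaperone, was 0.720 FPKM with 1,25(OH)2D3 and 32.3, 44.5 and 31.6 FPKM in the VDR-KD comparison libraries. In VDR-WT it was 0.176 FPKM with 1,25(OH)2D3 and 9.37, 15.7 and 0.655 FPKM in the comparison libraries. The 20(OH)D3 library of VDR-WT was thus near the 1,25(OH)2D3 library, while no VDR-KD comparison library was. ARC, a synaptic immediate early gene, INHBA, a subunit of activin, and TGFBI, a matrix protein induced by TGF-beta, followed. With 20(OH)D3 in VDR-WT they were 0.207, 0.322 and 0.285 FPKM, against 6.07 and 10.4, 4.46 and 8.33, and 1.97 and 3.19 FPKM with ethanol and 25(OH)D3. None of HSPA6, ARC, INHBA and TGFBI was called for the mean response (adjusted p = 0.0744, 0.157, 0.168 and 0.115 from limma). Their responses were -5.45, -4.76, -4.35 and -4.75 in VDR-KD and -4.13, -3.73, -2.59 and -1.21 in VDR-WT. The 1,20(OH)2D3 library of VDR-KD was low as well, with HSPA6 at 0.468 FPKM.

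Of 17 measured heat shock genes none was called, beside 2.41% of all entries tested, and their median response was 0.00 in VDR-KD and 0.01 in VDR-WT. Of 15 targets of TGF-beta and YAP none was called either, and the median response was -0.90 in VDR-KD and -0.70 in VDR-WT. At so low a share, lists of this size would often hold no call. Of these 15, 8 lay below all comparison libraries in both genotypes and none above, beside 13.1% and 14% of all 8146 genes. Leaving the 4 immediate early genes out of the 79 called falls gave a median ratio of VDR-KD to VDR-WT response of 1.09, beside 1.14 with them. No heat shock gene was among the 79, so these ratios say nothing about heat shock genes. The part of these low libraries in the other results was not tested.

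None was called of 21 ribosomal proteins, 20 subunits of oxidative phosphorylation, 29 genes of DNA replication, 21 of cholesterol synthesis and 23 of glycolysis and hypoxia. Beside these and the other lists of this paragraph, 1.59% of all entries tested were called higher and 0.824% lower (2.41% in either direction). A count of 0 or 1 in a list of this size is near that share and says little about the list. Of 29 mitosis genes TPX2, a spindle assembly factor, was called higher (mean response 0.48, adjusted p = 0.0409 from limma) and held in 1 of the 6 fits that left out a library (adjusted p up to 0.0991 without the 25(OH)D3 library of VDR-KD). The median response of the ribosomal list was 0.06 in VDR-KD and -0.04 in VDR-WT, that of oxidative phosphorylation 0.11 and -0.01, and that of glycolysis and hypoxia 0.21 and 0.18. In both genotypes 12 of the 23 genes of glycolysis and hypoxia lay above all comparison libraries and 1 below, beside 14% and 13.1% of all 8146 genes. The same held for 8 above and 0 below of the mitosis list, 5 and 0 of cholesterol synthesis, and 0 and 4 of DNA replication. DDIT4, an inhibitor of mTOR signaling, was called higher among 25 genes of amino acid and unfolded protein stress (1.06 in VDR-KD and 0.67 in VDR-WT), and S100B, a calcium-binding melanoma marker, with TRPM1 among 13 of calcium and phosphate handling (1.22 and 1.10). Among 19 cell cycle inhibitors and p53 targets GDF15 was called higher, and PLK2, a kinase induced by p53, lower (-1.05 and -1.01). DDIT4 held in 1 of the 6 fits that left out a library, and S100B and PLK2 in 5 (highest adjusted p = 0.0979, 0.0554 and 0.0557 from limma, the first when 25(OH)D3 in VDR-WT was left out, the others when 25(OH)D3 in VDR-KD was).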

How the data were processed

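The deposited values are FPKM for 10 libraries, which per the labels the authors made with STAR 2.7.1a, Cufflinks 2.2.1 and Cuffdiff on GRCh38. How multiply mapped reads were treated and how many reads each library had is not stated there, so depth is unknown. The 8146 genes exclude 2050 entries with several names, and 742 entries of at least 5 FPKM with no name in GENCODE 29.

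The 8 libraries formed 4 groups, 1,25(OH)2D3 and comparison in VDR-KD and VDR-WT. Entries averaging 0.5 FPKM or more across all libraries (14689) were fitted on log2(FPKM + 0.1) with limma 3.58.1 in R 4.3.3 (lmFit, eBayes with a trend, 4 residual degrees of freedom, two-sided), after the fit was tested on simulated data. Other values came from Python 3.11.15, pandas 2.3.3 and numpy 2.4.6, and figures from matplotlib 3.10.9. One label that reads 2(OH)D3 was taken as 20(OH)D3, as in its title.

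Named genes were CYP24A1, VDR and the 2 vitamin D lists; the 15 largest rises and falls called for the mean response; the 8 smallest p-values of the difference in each direction; per list, up to 4 members with the largest mean response and all called members; and the 5 largest differences among genes called in exactly 1 genotype, for each genotype. Some items are not reported here. The members, lists and rules were chosen with earlier results of these data known. Alternatives changed the added constant, filters, scaling, eBayes, the comparison libraries and a block for treatment.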

Additional observations from a re-analysis of the deposited data

Results flagged for a closer look

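HSPE1P2, a pseudogene outside the 8146 genes, was the entry whose difference of responses passed limma. It was 0 FPKM with 1,25(OH)2D3 and 2.45, 3.85 and 2.42 FPKM in the VDR-KD comparison libraries, against 6.42 FPKM and 1.69, 1.65 and 1.54 FPKM in VDR-WT, a difference of -6.80 (adjusted p = 0.0454). It may share reads with its parent gene. Another 11 of the 16 genes with the smallest p-values of the difference had the 1,25(OH)2D3 library above all comparison libraries in one genotype and below all in the other. Choosing genes by the smallest p of the difference favors this pattern, so its count among the 16 is a description only. The difference of responses, VDR-KD minus VDR-WT, was 0.90 for EML2, 0.98 for C17orf53, 0.98 for ZNF444, 0.88 for PHF12, 1.12 for SRGAP2B, 0.72 for RFX5, -2.10 for ZNF528, -1.02 for POLR3A, -1.15 for SLC8B1, -0.65 for R3HDM1 and -0.91 for REV3L. None of these passed the adjusted test of the difference. SRGAP2B has close copies in the genome and its level is uncertain.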

How the results depend on the processing

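Among the alternatives run, no result turned its direction. Calls in VDR-KD (37) became 62 with 1 added before the logarithm, 84 with no filter on low values, 154 with tests limited to the 8146 genes, 56 after median centring, 8 with eBayes without a trend, 82 with robust eBayes, 20 with 1,20(OH)2D3 among the comparison libraries, 16 with each genotype fitted alone, and 4 to 49 with 1 comparison library left out. Calls in VDR-WT (22) became 34 with 1 added, 72 with no filter, 86 with tests limited to the 8146 genes, 9 without a trend, 40 with robust eBayes, 12 with 1,20(OH)2D3 added, 2 with the genotype alone, and 5 to 15 with a library left out. Calls for the mean response (251) became 453 with tests limited to the 8146 genes, 94 without a trend, 151 with 1,20(OH)2D3 added, and 57 to 171 with a library left out. Without both 20(OH)D3 libraries, an alternative chosen after seeing the data, the counts were 0 in VDR-KD, 0 in VDR-WT and 30 for the mean response. Calls for the difference (0) became 1 with 1 or 0.5 added, 10 with no filter, 1 without a trend and 0 with any library left out. With treatment as a replicate block across genotypes, 138 genes were called for the mean response and 0 for the difference. The ratio of SDs (1.10) was 1.05 with 1,20(OH)2D3 added, 1.04 without both 20(OH)D3 libraries and 1.02 to 1.14 with a library left out. The median ratio of responses (1.10) was 1.03, 1.02 and 1.02 to 1.15 under the same 3 alternatives. The correlation (0.697) was 0.584 with the limit at 1 FPKM, 0.807 at 20 FPKM, 0.676 with 1,20(OH)2D3 added, 0.614 against ethanol alone and 0.657 to 0.712 with a library left out. Genes beyond all comparison libraries in both genotypes (2201) numbered 1283 at 20 FPKM, 5257 against ethanol alone and 2390 to 2741 with a library left out. Keeping entries with other noncoding names, also chosen later, gave 8656 genes and 260 calls for the mean response. The causes were not tested.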
